A study of Homo sapiens with 27 samples.

Results

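Oxaliplatin-resistant cells were compared with untreated parental cells in 3 human colorectal cancer (CRC) lines as one experiment. The comparison held all 9 libraries titled OX and all 9 titled WT, 18 of the 27 libraries of the series, with the cell line as a block. HCT116, SW480 and DLD-1 are established lines grown from human colorectal adenocarcinomas, and each gave 3 OX and 3 WT libraries. By the design text, OX cells had about 6 months of oxaliplatin at 5 to 35 µM, kept below a lethal dose, and WT cells are labelled as the negative control of the same line. All were grown in low-glucose DMEM with fetal bovine serum. The methods of the study describe stepwise exposure and passaging of survivors for HCT116 and SW480 and do not mention DLD-1. The sources name 1 selection per line and do not say whether the resistant cells were clones. Nothing states that replicate libraries were grown as separate cultures, and p-values then cover the variation among these libraries only, possibly technical. The library names of DLD-1 come from another number range than those of the other two lines, so the line and the library series cannot be told apart, whereas OX and WT of each line share a range.

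Oxaliplatin is a platinum drug that binds purines in DNA and forms mostly intrastrand crosslinks, which stall replication and transcription. It is a standard agent against colorectal cancer, and it is also known to disturb ribosome production in the nucleolus. Cells can tolerate platinum by taking up less of it or exporting more, by binding it with thiols, by repairing or bypassing its lesions, or by changes of state such as a loss of epithelial identity.

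A gene was called shared when its mean difference between OX and WT passed an adjusted p of 0.05 with a size beyond 1 in limma with line as a block, and when each line passed on its own in the same direction. All differences are of log2(TPM + 1), where TPM is the deposited FPKM divided by the sum of its library and scaled to a fixed total. Of 15401 genes tested, 345 were shared and higher in OX cells (2.24%), and 6 were shared and lower (0.039%). The genes just inside the size limit were CLIP4 at 1.0001 and IGSF3 at 1.0012, and those just outside were ZSWIM4 at 0.99999 and KIF3C at 0.99958. Within single lines, genes beyond a difference of 1 numbered 3996 higher (25.9%) and 673 lower (4.37%) in HCT116, 1930 (12.5%) and 170 (1.1%) in SW480, and 363 (2.36%) and 124 (0.805%) in DLD-1. A gene was called departing in DLD-1 when the difference of its change from that in HCT116 and from that in SW480 both passed in the same direction, with a mean beyond 1. Such genes were of 3 main kinds. At 503 genes (3.27%) HCT116 and SW480 passed in one direction and DLD-1 in the other. At 1304 genes (8.47%) both HCT116 and SW480 passed in one direction, and DLD-1 did not pass. At 82 genes (0.532%) DLD-1 alone passed. A further 135 genes (0.877%) passed in the same direction in each line but differed in size in DLD-1.

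The split between higher and lower shared genes depended on the scaling. Within TPM, the median difference of all genes tested lay above 0 in each line, at 0.51 in HCT116, 0.32 in SW480 and 0.11 in DLD-1. With median-of-ratios scaling, which sets the typical gene to no change, these medians were 0.07, 0.02 and 0, and 85 genes were shared and higher and 85 shared and lower. All 85 higher genes of that scaling were also among the 345, and all 6 lower genes kept their call in each of 4 scalings. A set of 52 genes was shared and higher in all 4 scalings. In the fourth of genes with the longest transcripts the median difference was 0.71 in HCT116 and 0.52 in SW480, against 0.40 and 0.28 in the fourth with the shortest, while DLD-1 gave 0.11 in both. The part of transcript length in the calls was not tested.

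Libraries of a group resembled each other closely, with correlations of log2(TPM + 1) across genes from 0.991 to 0.995, and no pair was identical. Each of the 9 OX libraries correlated best with the WT libraries of its own line (0.918 to 0.980) and less with the next line (0.798 to 0.842). Of 12 colorectal epithelial markers, 2 to 6 stayed under 1 TPM in every library of a group, and CDX1 was listed at 0 in all libraries of HCT116 and SW480. Together these markers made up 0.694% ± 0.011 of TPM in HCT116 WT and 0.595% ± 0.022 in OX, 0.906% ± 0.025 and 1.08% ± 0.040 in SW480, and 0.993% ± 0.019 and 2.01% ± 0.082 in DLD-1 (SD, n = 3). The rise of that sum in DLD-1 went with the abundant keratins KRT8, KRT18 and KRT19 (differences of 1.12, 1.24 and 1.17), while 5 of the 11 markers tested were lower there, 4 were higher and their median difference was -0.26. The 3 marker lists of fibroblasts, leukocytes and endothelium each made up at most 0.00713% of TPM in any group. The 12 leukocyte markers summed to 18.4 to 19.4 TPM in HCT116 WT and 61.6 to 74.9 in HCT116 OX, of which CD68, a lysosomal glycoprotein, held 14.3 to 16.3 and 54.7 to 66.7, and CD3D was listed at 0 in every group. The deposited values carry no read counts, so the depth of the libraries is unknown.

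Among the 345 shared higher genes the median difference was 1.77 in HCT116, 1.15 in SW480 and 0.66 in DLD-1, and DLD-1 had the smallest difference of the 3 lines at 249 of them (72.2%, against 60.1% of all genes tested). Only 26 passed a difference of 1 in each of the 3 lines. At 347 of the 351 shared genes (98.9%) the OX and WT libraries did not overlap in any line, where 35% of all genes tested had such a separation. The call already asked each line to pass on these same libraries, so this share is a description and not separate evidence. A TPM of 1 was reached in OX libraries alone by 3 of the 345, and the median transcript length of the 345 was 1572 bases, against 1183 for all genes tested. On hg19, the build of the files, the leading shared genes lie at chr10:33466420-33625190 (NRP1), chr11:2150342-2179621 (IGF2), chr11:68451247-68458643 (GAL) and chr3:169482308-169482848 (TERC), and leading departing genes at chrX:80457601-80554046 (SH3BGRL), chr16:68771195-68869440 (CDH1) and chr10:31607424-31818742 (ZEB1). Positions are those of the GENCODE annotation on that build.

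**Figure D1:**
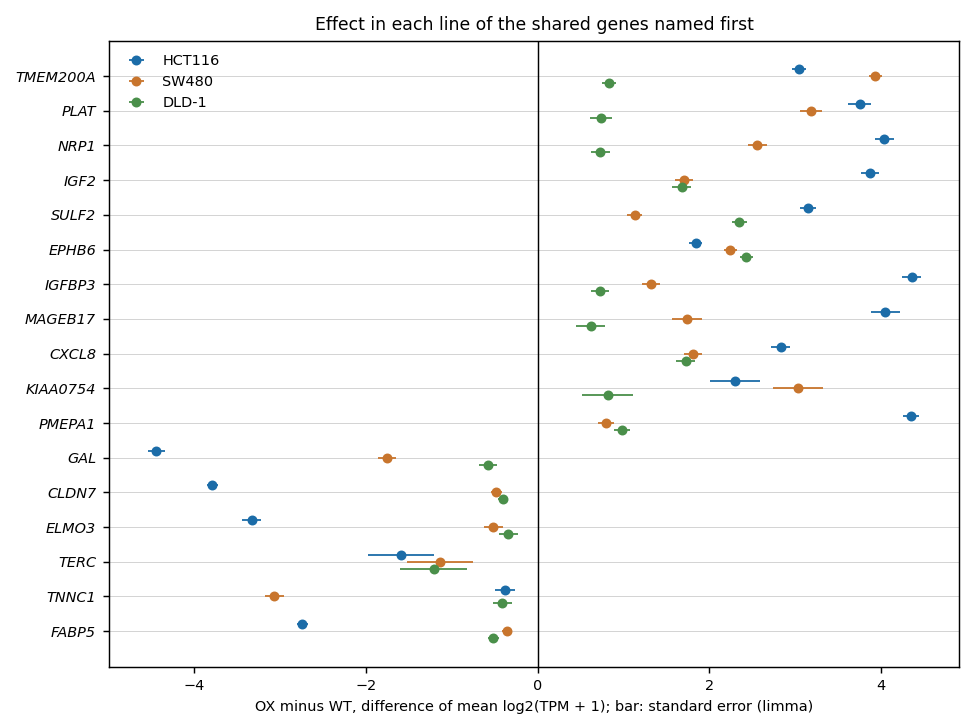
Each point is the difference of mean log2(TPM + 1) between OX and WT in 1 line, with its standard error from limma, for 11 shared higher and 6 shared lower genes named by size. All points of the higher genes lie right of 0 and all of the lower genes left of it, and DLD-1 lies nearest to 0 for PLAT and NRP1 but farthest for EPHB6.

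Sequences are shown for shared genes that differed by more than 0.8 in each line. These genes also kept their call in all 4 scalings and were named by the fixed rule. Of 7 such genes, 5 have a single promoter entry in the RefSeq tables and are printed. Each line holds the 250 bases before the start of that entry, read from GRCh38.p14 in the direction of the gene, all on the plus strand. Other starts of these genes were not considered, so a window need not lie before the whole gene. Capitals mark exact matches on either strand to TATAAA (known as the TATA box), GGGCGG (known as the GC box), CACGTG (E-box), TGANTCA (AP-1), TGACGTCA (CRE), GGNNTTTCC (NF-kB) or TGATGCAA (C/EBP-ATF).
TMEM200A: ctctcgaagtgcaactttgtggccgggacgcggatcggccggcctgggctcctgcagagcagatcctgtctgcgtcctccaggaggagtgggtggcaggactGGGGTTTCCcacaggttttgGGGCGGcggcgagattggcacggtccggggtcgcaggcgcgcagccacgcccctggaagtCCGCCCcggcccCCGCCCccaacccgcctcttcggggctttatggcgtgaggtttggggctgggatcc
EPHB6: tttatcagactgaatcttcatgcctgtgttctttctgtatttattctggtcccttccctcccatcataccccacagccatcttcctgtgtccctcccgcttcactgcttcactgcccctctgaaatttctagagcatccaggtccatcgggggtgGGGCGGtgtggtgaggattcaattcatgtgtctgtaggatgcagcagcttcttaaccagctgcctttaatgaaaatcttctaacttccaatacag
CXCL8: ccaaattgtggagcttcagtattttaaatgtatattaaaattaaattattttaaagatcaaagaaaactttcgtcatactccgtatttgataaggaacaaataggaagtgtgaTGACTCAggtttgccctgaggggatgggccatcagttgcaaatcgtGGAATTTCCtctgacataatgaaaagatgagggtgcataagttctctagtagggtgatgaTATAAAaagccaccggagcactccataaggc
GDF15: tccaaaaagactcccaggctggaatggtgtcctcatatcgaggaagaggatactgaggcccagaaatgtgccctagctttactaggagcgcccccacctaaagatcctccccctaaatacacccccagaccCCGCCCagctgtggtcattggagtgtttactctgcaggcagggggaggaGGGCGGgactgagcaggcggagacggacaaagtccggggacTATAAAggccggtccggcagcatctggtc
CDKN1A: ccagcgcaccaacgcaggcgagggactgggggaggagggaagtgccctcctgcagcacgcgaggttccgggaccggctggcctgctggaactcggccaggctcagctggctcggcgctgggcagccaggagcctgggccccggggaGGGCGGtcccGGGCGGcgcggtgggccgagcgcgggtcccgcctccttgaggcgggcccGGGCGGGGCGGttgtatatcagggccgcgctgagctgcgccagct
The windows lie at chr6:130365767-130366016 (TMEM200A), chr7:142862506-142862755 (EPHB6), chr4:73740319-73740568 (CXCL8), chr19:18385908-18386157 (GDF15) and chr6:36678464-36678713 (CDKN1A).

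GC boxes stood in 4 of the 5, at 3 places in TMEM200A, 1 in EPHB6, 2 in GDF15 and 4 in CDKN1A, where 42.6% of 35116 RefSeq promoter windows of this length hold at least 1. TATA boxes stood 31 bases before the start of CXCL8 and 29 bases before that of GDF15 (10.7% of windows). CXCL8 alone of these 5 held an AP-1 match (6.57% of windows), and an NF-kB match was present in CXCL8 and TMEM200A (5.48%). No E-box, CRE or C/EBP-ATF match was found in these windows. A match is only a stretch of letters and does not show that a factor binds.

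PLAT, the tissue plasminogen activator that turns plasminogen into plasmin, rose in each line. Its level went from 6.11, 6.63 and 6.66 TPM to 99.3, 91.8 and 108 in HCT116, from 0.956, 0.53 and 0.998 to 14.8, 15.2 and 16.6 in SW480, and from 0.5, 0.298 and 0.269 to 0.837, 1.65 and 1.36 in DLD-1. The libraries separated in each line, and the mean difference was 2.56 ± 0.33 (SE, limma adjusted p = 1.23e-05). The difference was 3.75 (standard error 0.13) in HCT116, 3.18 in SW480 and 0.74 in DLD-1, where the rise was smaller than in HCT116 (limma adjusted p = 3.18e-10) and in SW480 (1.39e-08). PMEPA1, a feedback inhibitor of TGF-β signalling, rose by 4.35 in HCT116, 0.80 in SW480 and 0.98 in DLD-1 with a mean of 2.04 (limma adjusted p = 0.000392). TGFB3, one of the TGF-β ligands, rose most evenly of these, by 1.25, 0.83 and 1.31, but kept the shared call in TPM alone of the 4 scalings.

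The named shared genes also included growth factor and guidance genes. IGF2, a fetal growth factor, was at 5.88, 5.4 and 5.41 TPM in HCT116 WT and 92.8, 85.3 and 108 in OX. In SW480 its levels were 2.27, 1.67 and 2.14 against 9.11, 9.32 and 8.09, and in DLD-1 2.6, 2.28 and 2.16 against 8.35, 10.7 and 10.2. The differences were 3.87, 1.70 and 1.68, all libraries separated, and the mean was 2.42 ± 0.26 (SE, limma adjusted p = 2.33e-06). IGF2 overlaps the read-through gene INS-IGF2 on the same strand, and their reads cannot be fully told apart. IGFBP3, which binds insulin-like growth factors, rose by 4.36, 1.32 and 0.73. NRP1, a co-receptor for VEGF and semaphorins, rose by 4.04, 2.56 and 0.73, and SULF2, an enzyme that trims sulphate from heparan sulphate outside the cell, by 3.15, 1.13 and 2.35.

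EPHB6, an Eph receptor without kinase activity, was the shared gene in this leading group whose change was greatest in DLD-1. It was at 5.15, 4.42 and 5.11 TPM in HCT116 WT and 20.8, 18 and 21.5 in OX. In SW480 it moved from 22.2, 22.9 and 24 to 109, 118 and 111, and in DLD-1 from 15.5, 15.8 and 14.2 to 88.3, 90.1 and 80.2. The differences were 1.84, 2.24 and 2.43, with a standard error of 0.075 each, and the mean was 2.17 ± 0.079 (SE, limma adjusted p = 2.27e-11). Its difference in DLD-1 exceeded that in HCT116 (limma adjusted p = 9.82e-05), while the test against SW480 gave 0.141. TMEM200A, a membrane protein, rose by 3.04, 3.93 and 0.83 from quite different starting levels, at 3.57 to 4.13 TPM in HCT116, 0.218 to 0.548 in SW480 and 48.7 to 54.1 in DLD-1.

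CXCL8, the neutrophil chemokine interleukin 8, was at 10.7, 11.1 and 12.4 TPM in HCT116 WT and 87.4, 87.2 and 86.2 in OX. In SW480 it was at 0.0711, 0 and 0.0775 in WT and 3.15, 2.67 and 2.26 in OX, and in DLD-1 at 1.21, 1.11 and 1.3 in WT and 5.23, 6.28 and 7.52 in OX. The differences were 2.83, 1.81 and 1.72, and those of SW480 and DLD-1 could not be separated by the test of their difference (limma adjusted p = 0.655). MAGEB17, a cancer-testis antigen gene, rose by 4.05, 1.74 and 0.62, with the shared call in 3 of 4 scalings. KIAA0754 rose by 2.30, 3.03 and 0.82 with wide spread, at 4.78, 0.926 and 2.4 TPM in SW480 WT, and had the call in TPM alone. It lies within MACF1, so reads may be shared.

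**Figure D2:**
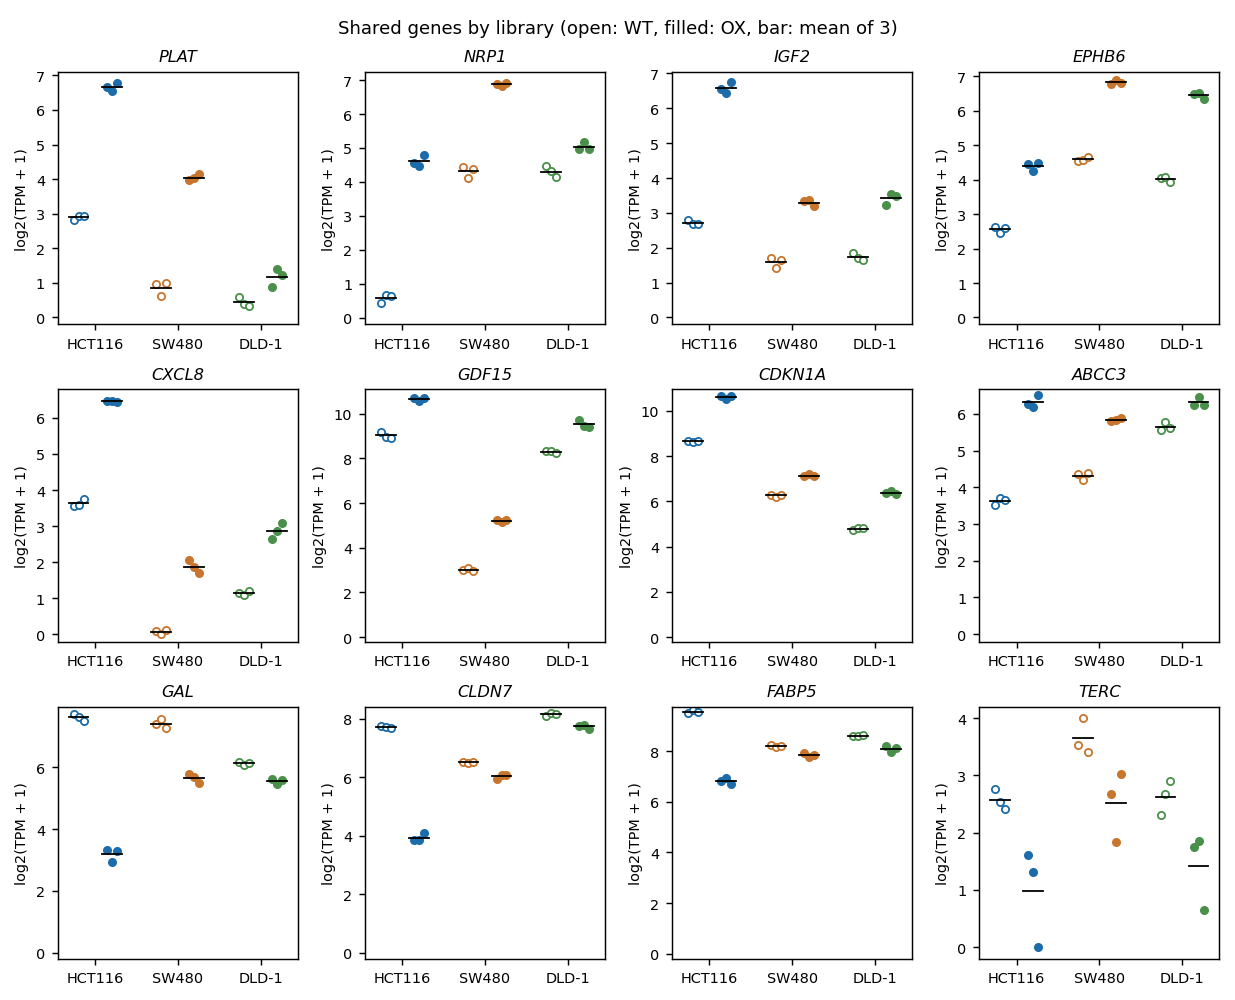
Each panel shows log2(TPM + 1) of 1 gene in the 18 libraries, with open points for WT, filled points for OX and a bar at the mean of 3. In PLAT, NRP1, IGF2, EPHB6, CXCL8, GDF15, CDKN1A and ABCC3 the filled points lie above the open ones in every line, and in GAL, CLDN7, FABP5 and TERC below them.

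The 6 shared lower genes were GAL, CLDN7, ELMO3, FABP5, TNNC1 and TERC, and the first 4 fell most in HCT116. GAL encodes the neuropeptide galanin and fell from 210, 196 and 180 TPM to 8.98, 6.58 and 8.78 in HCT116. In SW480 it fell from 166, 187 and 154 to 54.4, 50.4 and 43.6, and in DLD-1 from 70.7, 66.1 and 69.8 to 47.9, 42.6 and 46.9. The libraries separated in each line, with differences of -4.44, -1.75 and -0.58 and a mean of -2.26 ± 0.40 (SE, limma adjusted p = 0.000164). CLDN7, a tight junction claudin, fell by 3.78 in HCT116, by 0.48 in SW480 and by 0.40 in DLD-1. ELMO3, an adaptor in Rac signalling, gave -3.33, -0.52 and -0.34, and FABP5, a fatty acid carrier, -2.74, -0.36 and -0.52. TNNC1, a cardiac and slow muscle troponin, fell by 3.06 in SW480, by 0.38 in HCT116 and by 0.41 in DLD-1.

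TERC, the RNA template of telomerase, showed no difference between lines that passed, with limma adjusted p of 0.547 for DLD-1 against HCT116 and 0.918 against SW480. It was at 5.81, 4.83 and 4.3 TPM in HCT116 WT and 2.07, 1.5 and 0 in OX. In SW480 it was at 10.6, 15 and 9.64 against 5.4, 2.58 and 7.16, and in DLD-1 at 3.97, 5.36 and 6.5 against 2.37, 2.63 and 0.57. The groups did not overlap, but the spread was wide, and the differences were -1.59, -1.13 and -1.21 with a standard error of 0.39 (mean -1.31 ± 0.23, limma adjusted p = 0.00015). TERC is not polyadenylated, so mRNA libraries capture it poorly.

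Cytosolic ribosomal proteins, the building blocks of the ribosome, were lower in each line. Of 78 measured members, 76 were lower in HCT116 OX, 75 in SW480 and 72 in DLD-1 at an adjusted p under 0.05, and 71 were lower in all 3 lines. Over all genes tested the share lower at that threshold was 16.3%, 13.8% and 8.92%, and 1.29% were lower in all 3. Their share of TPM fell from 22.6% ± 0.59 to 12.6% ± 0.51 in HCT116, from 22.2% ± 0.70 to 16.8% ± 0.23 in SW480, and from 20.0% ± 0.32 to 15.3% ± 0.41 in DLD-1 (SD, n = 3). The list median was -0.86, -0.44 and -0.39, below the median of all genes in every scaling. None met the rule for a shared gene in TPM, with its size limit, whereas 26 did so with median-of-ratios scaling.

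Oxidative phosphorylation genes, which encode the respiratory chain, were lower along with them, but less so in DLD-1. Of 65 members, 52 were lower in HCT116, 44 in SW480 and 14 in DLD-1, with medians of -0.43, -0.21 and -0.06. In all 3 lines 10 were lower. Over all genes tested 16.3%, 13.8% and 8.92% were lower, and 1.29% in all 3. The ribosome biogenesis list followed the same order of lines with 27, 16 and 4 of 34 lower, so DLD-1 lay near the share of all genes. In that list 3, 11 and 6 were higher, where 63%, 55.4% and 30.6% of all genes tested were higher. Both lists lay below the median of all genes in each line under every scaling.

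Genes commonly induced by DNA damage held 6 shared genes, the highest count of the 29 lists, which differ in size. Of all genes tested, 2.24% were shared and higher. Of 28 measured, 28 were higher in HCT116, 22 in SW480 and 16 in DLD-1, where 63%, 55.4% and 30.6% of all genes tested were higher, and the shared ones were CDKN1A, GDF15, FAS, GADD45A, AEN and PLK2. With median-of-ratios scaling the counts of higher members were 25, 12 and 14, and 3 were shared. In that scaling 41%, 34.2% and 18.5% of all genes tested were higher in HCT116, SW480 and DLD-1, and 32.7%, 32.7% and 17% were lower. The median exceeded that of all genes by 1.38 in HCT116, 0.14 in SW480 and 0.21 in DLD-1.

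CDKN1A encodes p21, an inhibitor of cyclin-dependent kinases. Its levels were 409, 393 and 401 TPM against 1610, 1480 and 1600 in HCT116, 77.7, 72.7 and 76.8 against 137, 146 and 138 in SW480, and 25.4, 27.3 and 27.1 against 82.5, 85.8 and 79.4 in DLD-1. The differences of 1.96, 0.88 and 1.60 were many times their standard error of 0.047, and all groups separated. GADD45A, a stress-induced growth arrest gene, rose by 3.44, 1.11 and 0.56.

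GDF15, a stress-induced cytokine of the TGF-β superfamily and the gene the study is about, rose in each line. It was at 588, 502 and 485 TPM in HCT116 WT and 1660, 1500 and 1660 in OX. In SW480 it was at 6.98, 7.44 and 6.69 against 37.3, 34.2 and 36.5, and in DLD-1 at 324, 318 and 297 against 842, 696 and 682. The differences were 1.61, 2.2 and 1.23 with a mean of 1.68 ± 0.11 (SE, limma adjusted p = 2.06e-08), and GDF15 kept the shared call in all 4 scalings. The rise in DLD-1 was smaller than in HCT116 (limma adjusted p = 0.00631) and in SW480 (2.21e-06). The level of SW480 OX remained below that of WT in both other lines.

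Platinum transport genes included 2 shared members of 14, both ATP-driven exporters, where 2.24% of all genes tested were shared and higher. ABCC3, a multidrug resistance protein that exports organic anions, was at 10.5, 12 and 11.7 TPM against 76.4, 71.4 and 90.4 in HCT116, 19.5, 17.2 and 19.9 against 54.7, 56.2 and 57.7 in SW480, and 46.6, 53.5 and 48 against 74.5, 87.7 and 74.2 in DLD-1. It rose by 2.69, 1.53 and 0.66 in TPM (2.15, 1.13 and 0.52 with median-of-ratios scaling), and the shared call held in all 4 scalings. ABCG2, the breast cancer resistance protein, rose by 1.16, 1.23 and 0.63 from at most 2.02 TPM in WT and had the shared call in TPM alone. Of 14 transport genes measured, 13 were higher in HCT116, 12 in SW480 and 6 in DLD-1, with 9, 10 and 4 by median-of-ratios scaling. Over all genes tested 63%, 55.4% and 30.6% were higher in TPM, and the list median exceeded that of all genes by 0.30, 0.29 and 0.06.

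SLC31A1 and ATP7A, copper transporters tied to platinum, were not shared. SLC31A1 (CTR1), the copper importer, differed by 0.59 in HCT116 and 0.87 in SW480, and by 0.19 in DLD-1 (limma adjusted p = 0.0882). With median-of-ratios scaling the call in HCT116 was lost (0.04, limma adjusted p = 0.523), SW480 gave 0.47, and 1 of the 4 scalings turned the sign in HCT116. ATP7A, a copper exporter, was at 1.32, 1.85 and 1.88 TPM against 4.06, 3.82 and 4.24 in HCT116 and at 1.2, 0.871 and 1.11 against 5.39, 4.72 and 5.57 in SW480. In DLD-1 it was at 7.85, 9.36 and 8.23 against 9.36, 9 and 10, so that the groups overlapped, and DLD-1 differed from each other line (limma adjusted p = 0.000154 and 3.86e-07). The differences of ATP7A were 0.91 in HCT116, 1.60 in SW480 and 0.14 in DLD-1. With median-of-ratios scaling ATP7A no longer departed, and it overlaps PGK1 on the same strand. ABCC2, another platinum exporter, fell in HCT116 by 1.40, rose by 0.22 in SW480 and did not pass in DLD-1 (limma adjusted p = 0.696).

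Among thiol defence genes NQO1, a quinone reductase under NRF2, was the shared member. It was at 350, 371 and 365 TPM against 998, 1030 and 983 in HCT116, 146, 135 and 137 against 377, 368 and 393 in SW480, and 111, 113 and 113 against 199, 184 and 191 in DLD-1. Its differences of 1.47, 1.44 and 0.76 gave the shared call in 2 of 4 scalings. GSTP1, a glutathione transferase, fell by 0.69 in HCT116 and by 1.17 in SW480 and gave -0.04 in DLD-1. The metallothionein MT2A differed by -0.56, 0.15 and 1.02, and DLD-1 differed from both other lines (limma adjusted p = 4.91e-10 and 1.68e-06). In SW480 MT2A did not pass (limma adjusted p = 0.0785) and gave -0.27 with median-of-ratios scaling. Quantile scaling turned its sign in HCT116.

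Of 27 nucleotide excision repair genes tested, 1 was shared and higher, near the 2.24% of all genes tested. Among 8 mismatch repair, 30 Fanconi anemia and recombination and 11 translesion synthesis genes, 0 were shared. ERCC6 (CSB), which starts repair where transcription stalls, rose by 1.93, 0.82 and 0.44, with the call in TPM alone. ERCC1, the partner of the XPF nuclease, differed by 0.28, 0.48 and 0.26 in TPM, and its mean lay at -0.03 with median-of-ratios scaling. MSH6, a mismatch repair protein, gave -0.16, -0.08 and 0.01 in TPM and did not pass in any line. With median-of-ratios scaling it passed as lower in HCT116 (-0.71, limma adjusted p = 1.46e-08) and SW480 (-0.49, 1.99e-06).

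Integrins, the receptors for extracellular matrix, had 4 shared members among 16 measured chains, ITGA3, ITGA7, ITGA10 and ITGB4. The share of all genes tested that were shared and higher was 2.24%. ITGB4, the laminin-binding chain of hemidesmosomes, was at 177, 160 and 178 TPM against 474, 399 and 532 in HCT116, 77.2, 71.4 and 77.2 against 166, 191 and 173 in SW480, and 75, 77.3 and 76.6 against 141, 146 and 132 in DLD-1. The differences were 1.43, 1.22 and 0.86, and the call held in 2 scalings. None of the 4 had it with median-of-ratios scaling. ITGA6, the usual partner of ITGB4, instead departed: it rose by 1.57 and 1.31 in HCT116 and SW480 and fell by 0.71 in DLD-1, from 368, 379 and 356 TPM to 223, 226 and 227. Counts of higher chains were 13, 13 and 8 of 16, where 63%, 55.4% and 30.6% of all genes tested were higher, and counts of lower chains were 1, 1 and 3.

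Other lists fixed for this comparison also held shared members, where 2.24% of all genes tested were shared and higher. The TGF-β list had 34, 25 and 15 of 37 higher, where the shares of all genes tested were 63%, 55.4% and 30.6%, and its median less that of all genes was 0.37, 0.24 and -0.02. It held 3 shared genes, the stem cell and WNT list had SOX9 and TNFRSF19 shared of 21, and the hypoxia list ADM and EGLN3 of 20. The list of 13 CRC stem cell markers was taken by the study from earlier literature. It had 12 measured members, of which 8, 6 and 5 were higher (63%, 55.4% and 30.6% of all genes tested), and ALCAM alone was shared, in TPM scaling. SOX9, a transcription factor of crypt base cells, rose by 1.65, 1.34 and 0.75, with the shared call in 2 scalings, while TNFRSF19, ADM and EGLN3 had it in TPM alone. Of the death regulators, BIRC3, an inhibitor of apoptosis, rose by 3.36, 0.93 and 0.45 in TPM (2.87, 0.68 and 0.32 with median-of-ratios scaling), and its shared call held in all 4 scalings. The lysosomal sulfatase IDS rose by 1.87, 1.68 and 0.71.

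DLD-1 went against both other lines at 503 genes, 146 of them (0.948% of genes tested) higher in DLD-1 and lower elsewhere and 357 (2.32%) the reverse. With median-of-ratios scaling these counts were 365 and 307, of which 101 and 201 were among the 146 and 357. The WT libraries already differed. At 76.8% of the 357 genes the DLD-1 WT level exceeded that of both other WT lines, as it did at 51.2% of all genes tested, and at 56.2% of the 146 it was the lowest of the 3, against 21.9%. The same WT libraries enter the differences, so these shares are a description and not separate evidence.

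**Figure D3:**
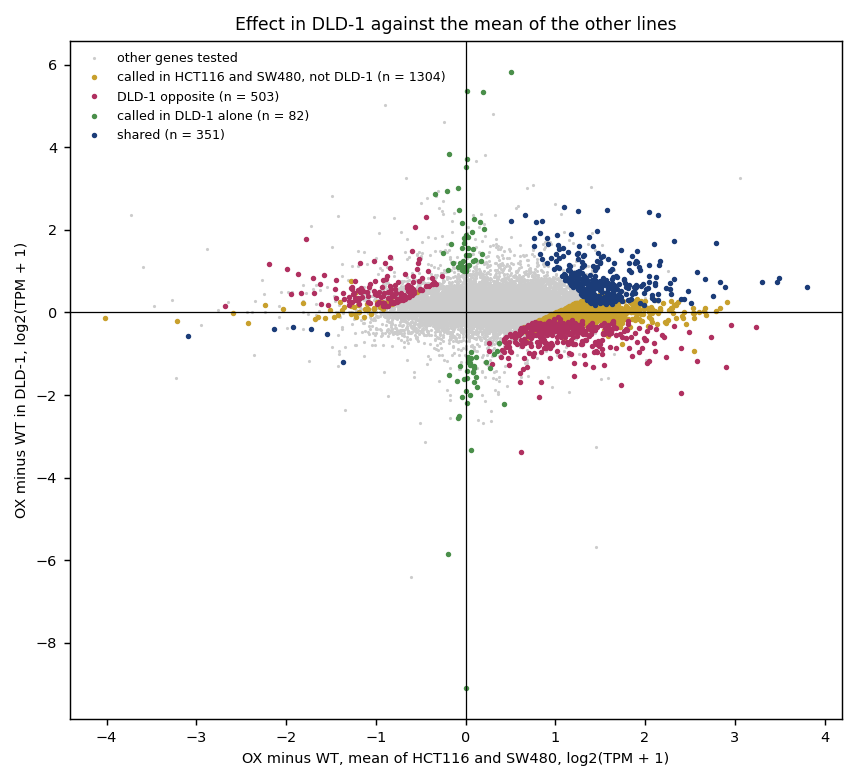
Each point is a gene tested, with the mean difference of HCT116 and SW480 on the x axis and the difference of DLD-1 on the y axis, both in log2(TPM + 1). Shared genes lie in the upper right and lower left, opposite genes in the upper left and lower right, and the 1304 genes without a call in DLD-1 lie along the x axis. The lowest point is the small RNA gene MIR1273E, which is not described further.

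Replication genes moved in opposite directions. Of 41 genes listed for DNA replication, 40 were lower in HCT116 OX, 19 lower and 7 higher in SW480, and 38 higher in DLD-1. Among all genes tested, 16.3% were lower in HCT116, 13.8% lower and 55.4% higher in SW480, and 30.6% higher in DLD-1. With median-of-ratios scaling 41 and 36 were lower in the first 2 lines and 34 were higher in DLD-1. The shares of all genes in that scaling were 32.7%, 32.7% and 18.5%. The 14 that met the rule for opposite genes were MCM2, MCM7, CDT1, GINS2, RFC2, RFC4, FEN1, POLA2, POLD1, POLE2, PRIM1, TK1, TYMS and CHAF1B. MCM7, a subunit of the replicative helicase, was at 316, 304 and 302 TPM against 56.4, 54.8 and 56.5 in HCT116, 594, 593 and 623 against 435, 447 and 447 in SW480, and 256, 265 and 259 against 462, 469 and 427 in DLD-1. It fell by 2.44 and 0.44 and rose by 0.80, and DLD-1 differed from each other line (limma adjusted p = 9.87e-17 and 2.84e-11). GINS2, another part of that helicase, gave -2.91, -0.76 and 0.47.

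Mitosis genes were split between the lines in another way. All 38 were lower in HCT116 and 37 were higher in DLD-1, while SW480 had 25 higher and 4 lower in TPM but 11 higher and 17 lower with median-of-ratios scaling. Among all genes tested, 16.3% were lower in HCT116 and 30.6% higher in DLD-1. For SW480 the shares of all genes were 55.4% higher and 13.8% lower in TPM, and 34.2% and 32.7% with median-of-ratios scaling. AURKB, a kinase of chromosome segregation, was at 122, 128 and 120 TPM against 15.3, 14.7 and 21.4 in HCT116 and at 67.7, 73.1 and 68.5 against 140, 129 and 125 in DLD-1. SW480 went from 200, 213 and 210 to 166, 161 and 160. The Fanconi anemia and recombination genes UBE2T, RAD54L and FANCA belonged to the opposite class, with RAD54L at -1.81, -0.65 and 0.77. Of that list, 22 of 30 were higher in DLD-1 and none lower, where 30.6% of all genes tested were higher. HCT116 had 9 higher and 14 lower, and SW480 had 18 higher and 5 lower in TPM but 10 higher and 13 lower with median-of-ratios scaling.

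The ATF4 response, a program of amino acid synthesis, import and tRNA charging under stress, ran the other way. Of 28 genes, 23 were higher in HCT116, 24 in SW480 and 2 in DLD-1, where 24 were lower. The shares of all genes tested were 63%, 55.4% and 30.6% higher, and 8.92% lower in DLD-1. With median-of-ratios scaling these counts were 19, 13 and 0, and 24 lower. The 13 opposite members were DDIT3, TRIB3, CHAC1, ASNS, SLC7A11, SESN2, DDIT4, NUPR1, AARS, WARS, SARS, CARS and XPOT. SLC7A11, the cystine importer that feeds glutathione synthesis, was at 4.32, 4.38 and 4.9 TPM against 36.5, 34.3 and 44.6 in HCT116, 0.636, 0.551 and 0.516 against 12.3, 11.3 and 13.3 in SW480, and 20, 22.5 and 19.7 against 15.8, 16.7 and 16.8 in DLD-1. It rose by 2.83 and 3.08 and fell by 0.32, and the groups separated in every line.

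DDIT3 (CHOP), a transcription factor of prolonged stress, rose by 3.87 in HCT116 and 0.56 in SW480 and fell by 0.59 in DLD-1. Its values were 21.2, 20.5 and 22.8 TPM against 332, 338 and 314 in HCT116 and 60.5, 53.6 and 57.2 against 36.1, 33.9 and 43.5 in DLD-1. With median-of-ratios scaling it was no longer called opposite. ATF3 alone of the list was shared, at 2.30, 0.66 and 0.25 in TPM.

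Genes that rose in DLD-1 but fell in the other lines included VSNL1, LCN2, LAD1, NMU and S100A2. VSNL1, a calcium sensor, was at 68.4, 69.8 and 70.1 TPM in HCT116 WT and 5.76, 4.71 and 4.67 in OX. In SW480 it went from 57.2, 41 and 47.2 to 28.6, 24.7 and 26.9, and in DLD-1 from 26.5, 28.5 and 22 up to 56.5, 64 and 57. It fell by 3.55 and 0.82 and rose by 1.18, and DLD-1 differed from both (limma adjusted p = 2.04e-13 and 2.44e-08). LCN2, an iron-binding protein of innate defence, fell by 1.56 and 2.42 and rose by 1.04. NMU, a neuropeptide, gave -2.73, -0.99 and 0.93. S100A2 gave -0.56, -0.33 and 2.32. LAD1, an anchoring filament protein, gave -3.91, -1.44 and 0.16, and its rise in DLD-1 was lost with median-of-ratios scaling.

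Genes that rose in HCT116 and SW480 but fell in DLD-1 were led by SH3BGRL, a small adaptor protein. Its levels were 36.4, 37.1 and 39.4 TPM against 113, 119 and 119 in HCT116, 1.44, 0.974 and 1.01 against 19.3, 15.6 and 21.2 in SW480, and 15.7, 12.7 and 14.2 against 2.71, 3.53 and 2.58 in DLD-1. It rose by 1.61 and 3.20 and fell by 1.95 (limma adjusted p for DLD-1 against the others 9.86e-12 and 6.83e-13). AKR1C3, an aldo-keto reductase that reduces steroids and prostaglandins, rose by 4.37 and 1.43 and fell by 1.33. It shares long stretches with other AKR1C genes, so its reads may be split between them.

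DPP4 (CD26), a surface peptidase, dropped in DLD-1 from 48.7, 47.9 and 44 TPM to 3.4, 3.98 and 3.45, a fall by 3.38. HCT116 rose by 0.95 from 1.51, 1.04 and 1.29 TPM and SW480 by 0.30 while at or below 0.339 TPM. With median-of-ratios scaling DPP4 was no longer called opposite. IQGAP2, a scaffold protein, gave 2.24, 1.22 and -1.76, the receptor EPHA4 4.24, 2.22 and -0.36, and the noncoding SPRY4-IT1 1.57, 3.60 and -1.17. KLF4, a factor of epithelial differentiation, rose by 2.85 and 1.17 and fell by 0.67, and the drug exporter ABCB1 (P-glycoprotein) gave 0.79, 3.20 and -0.61. ABCB1 was at 47, 47.5 and 46.9 TPM in DLD-1 WT and 29.8, 31.2 and 30.5 in OX, still above SW480 OX at 23.4, 23.7 and 24.4.

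At 1304 genes HCT116 and SW480 moved together and DLD-1 did not pass, with DLD-1 lying below at 1259 of these (8.17%) and above at 45 (0.292%). With median-of-ratios scaling the class held 463 lower and 342 higher, with 437 and 41 of them in common with TPM. At 74.3% of the 1259 genes the WT level of DLD-1 exceeded that of both other lines (51.2% of all genes tested). The same WT libraries enter the differences, so this share too is only a description.

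Several epithelial genes fell in HCT116 and SW480 without a call in DLD-1 in TPM. CDH1, E-cadherin, was at 27.3, 30.1 and 29.6 TPM against 3.98, 3.33 and 3.6 in HCT116, 19.4, 14.2 and 17.1 against 2.47, 3.66 and 2.96 in SW480, and 417, 440 and 409 against 340, 372 and 345 in DLD-1. It fell by 2.70 and 2.15, and DLD-1 gave -0.26 with an adjusted p of 0.0595 in limma, although its libraries separated. With median-of-ratios scaling the fall in DLD-1 passed as well, and CDH1 was then shared and lower. AP1M2, an adaptor subunit for sorting to the basolateral membrane, fell by 6.64 in HCT116, from 131, 133 and 134 TPM to 0.376, 0.0909 and 0.601, and by 1.40 in SW480, and DLD-1 gave -0.14. ST14, the membrane protease matriptase, gave -5.84, -0.60 and -0.21, and its difference between DLD-1 and SW480 was near the threshold (limma adjusted p = 0.0344). With median-of-ratios scaling its fall in DLD-1 passed (-0.35, limma adjusted p = 0.0114), and ST14 was then shared and lower.

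MISP, an actin-bundling protein, gave -4.32, -0.86 and -0.00, and TMEM125 -4.01, -0.46 and 0.18. Among the epithelial junction list, EPCAM, MARVELD3 and CGN belonged to the opposite class, with EPCAM at -2.51, -0.55 and 0.18, and its rise in DLD-1 was lost with median-of-ratios scaling. Of 41 list members 26 were lower and 11 higher in HCT116, 16 lower and 16 higher in SW480, and 3 lower and 17 higher in DLD-1. Over all genes tested 16.3%, 13.8% and 8.92% were lower and 63%, 55.4% and 30.6% higher. CLDN1 was the shared higher member, at 0.48, 1.08 and 2.19, with the shared call in 2 of 4 scalings. In HCT116 it stayed at or below 0.484 TPM in every library.

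Of 23 mesenchymal genes, 18 were higher in HCT116, 14 in SW480 and 5 in DLD-1 (16, 10 and 4 with median-of-ratios scaling). Against 63%, 55.4% and 30.6% of all genes tested, the share was above in HCT116, near in SW480 and below in DLD-1. ZEB1, a repressor of CDH1, went from 0.271, 0.576 and 0.362 TPM to 13.3, 12.5 and 16.1 in HCT116, and from 1.7, 1.27 and 1.21 to 11.1, 9.38 and 10.9 in SW480. In DLD-1 it stayed between 0.164 and 0.641 TPM in both groups, which overlapped. It rose by 3.41 and 2.26, and DLD-1, at 0.10, differed from both (limma adjusted p = 2.67e-10 and 1.54e-07). VIM, FN1, SNAI2 and LOXL2 were in the same class, and SPARC fell by 1.69 in DLD-1 while it rose by 0.93 and 0.74 in the others. The TGF-β targets THBS1 and CTGF rose by 3.48 and 3.21 in HCT116 and by 1.83 and 1.12 in SW480, while DLD-1 gave 0.02 and 0.06.

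CDKN2B (p15), another cyclin-dependent kinase inhibitor, was at 2.32, 2.57 and 2.68 TPM against 17, 15.8 and 17.8 in HCT116, 2.05, 1.44 and 2.42 against 17.9, 16.3 and 15.5 in SW480, and 3.46, 3.15 and 3.38 against 2.23, 3.05 and 2.47 in DLD-1. It rose by 2.34 and 2.58, and DLD-1 gave -0.28, which passed as a fall with median-of-ratios scaling. ANTXR2, a collagen-binding receptor, rose by 2.79 and 2.78 to levels of 8.06 to 11.7 TPM, below the 28.8 to 30.7 TPM that DLD-1 held in both groups. ZBED6 showed the same order, and it lies in an intron of ZC3H11A on the same strand. PLA2G4C, a phospholipase, rose by 3.68 and 1.69. The read-through genes IPO11-LRRC70 and GPR75-ASB3 met the rules too, but share exons with their parent genes, and GPR75-ASB3 ranged from 0.0154 to 13.4 TPM within DLD-1 OX.

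Interferon response genes were higher mainly in HCT116, and hypoxia genes in HCT116 and SW480. Of 38 interferon genes, 37 were higher in HCT116, 23 in SW480 and 5 in DLD-1, where 7 were lower (37, 16 and 4 higher with median-of-ratios scaling). All genes tested were higher at 63%, 55.4% and 30.6%, so the count in SW480 was near that share, and the list median there exceeded that of all genes by 0.04, against 1.05 in HCT116. By the rule for departures 3 interferon genes were opposite in DLD-1, and 9 were called in HCT116 and SW480 without a call in DLD-1. STAT2 and IRF9, which bind interferon-stimulated response elements together, were shared in TPM, at 2.35, 1.06 and 0.33 and at 1.53, 1.32 and 0.44. Of 20 hypoxia genes, 18, 17 and 6 were higher, and the list median exceeded that of all genes by 0.87 and 0.68 in HCT116 and SW480. VEGFA, the vascular growth factor, rose by 2.08 and 0.23 and fell by 0.74 in DLD-1, an opposite call lost with median-of-ratios scaling. NDRG1, a hypoxia-induced gene, rose by 1.67 and 2.47 with 0.12 in DLD-1 (limma adjusted p = 0.178).

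DLD-1 alone changed at 82 genes, 46 higher (0.299%) and 36 lower (0.234%), and 3 of the 6 higher ones named by size, SPRR3, IVL and SPRR1A, encode parts of the cornified envelope of squamous cells. With median-of-ratios scaling the counts were 38 and 46. SPRR3, a small proline-rich protein of the cornified envelope, was at 0, 0.232 and 0 TPM in DLD-1 WT and 47.2, 44.5 and 38.4 in OX, and was listed at 0 in all HCT116 libraries. IVL, involucrin, was at 0.874, 1.39 and 0.626 against 25.2, 25.5 and 23, and SPRR1A was listed at 0 in WT and at 11.3, 10.9 and 9.5 in OX. In the other lines IVL and SPRR1A were at or below 0.0804 TPM in every library. The differences in DLD-1 were 5.37, 3.72 and 3.53 on the log2(TPM + 1) scale. Of the 46 genes, 13 reached 1 TPM in DLD-1 OX libraries alone, so a higher level there was what let them pass the filter. SPRR3 and SPRR1A were among these 13, and IVL reached 1 TPM elsewhere only at 1.39 in DLD-1 WT. The calls of these genes are therefore not separate evidence.

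C6orf15 rose by 5.34, from 1.77, 0.881 and 1.27 TPM to 97.6, 93.4 and 84.2. FAM25A, which has near-identical family members, gave 3.84, and the chemokine CCL26 2.87, and neither kept this class with median-of-ratios scaling.

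Genes lower in DLD-1 alone included several of intestinal and mucous cells. TFF1, a trefoil peptide that protects mucosa, fell from 167, 173 and 174 TPM to 32.1, 29 and 26.4, and TFF2 from 51.1, 59.6 and 53.9 to 7.86, 8.27 and 9.63, though TFF2 did not keep this class with median-of-ratios scaling. TFF1 was listed at 0 in all but 1 of the 12 libraries of the other lines. IL33, an alarmin cytokine, fell from 153, 164 and 155 to 37.4, 37.8 and 40.2, with differences of -2.52, -2.54 and -2.01 for these genes (limma adjusted p = 1.55e-11, 1.28e-09 and 2.91e-11). UGT1A1, which glucuronidates bilirubin and drugs, was at 11, 11.7 and 9.87 against 0, 0 and 0.649, and its exons overlap those of other UGT1A genes, so reads may be shared. LGALS4, a gut lectin, fell by 2.22 and ARSE by 2.18, the latter listed at 0 in DLD-1 OX. Of 17 measured genes of intestinal identity, 11 were lower and 3 higher in DLD-1, where 8.92% of all genes tested were lower and 30.6% higher. HCT116 had 1 lower and 7 higher and SW480 3 lower and 4 higher, and PHGR1 was called higher in DLD-1 alone. At 33 of the 36 genes (91.7%) the WT level of DLD-1 was the highest of the 3 lines, against 51.2% of all genes tested, and 11 reached 1 TPM in DLD-1 WT alone. These genes were chosen for a fall from that WT level, so the share is a description and not separate evidence.

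**Figure D4:**
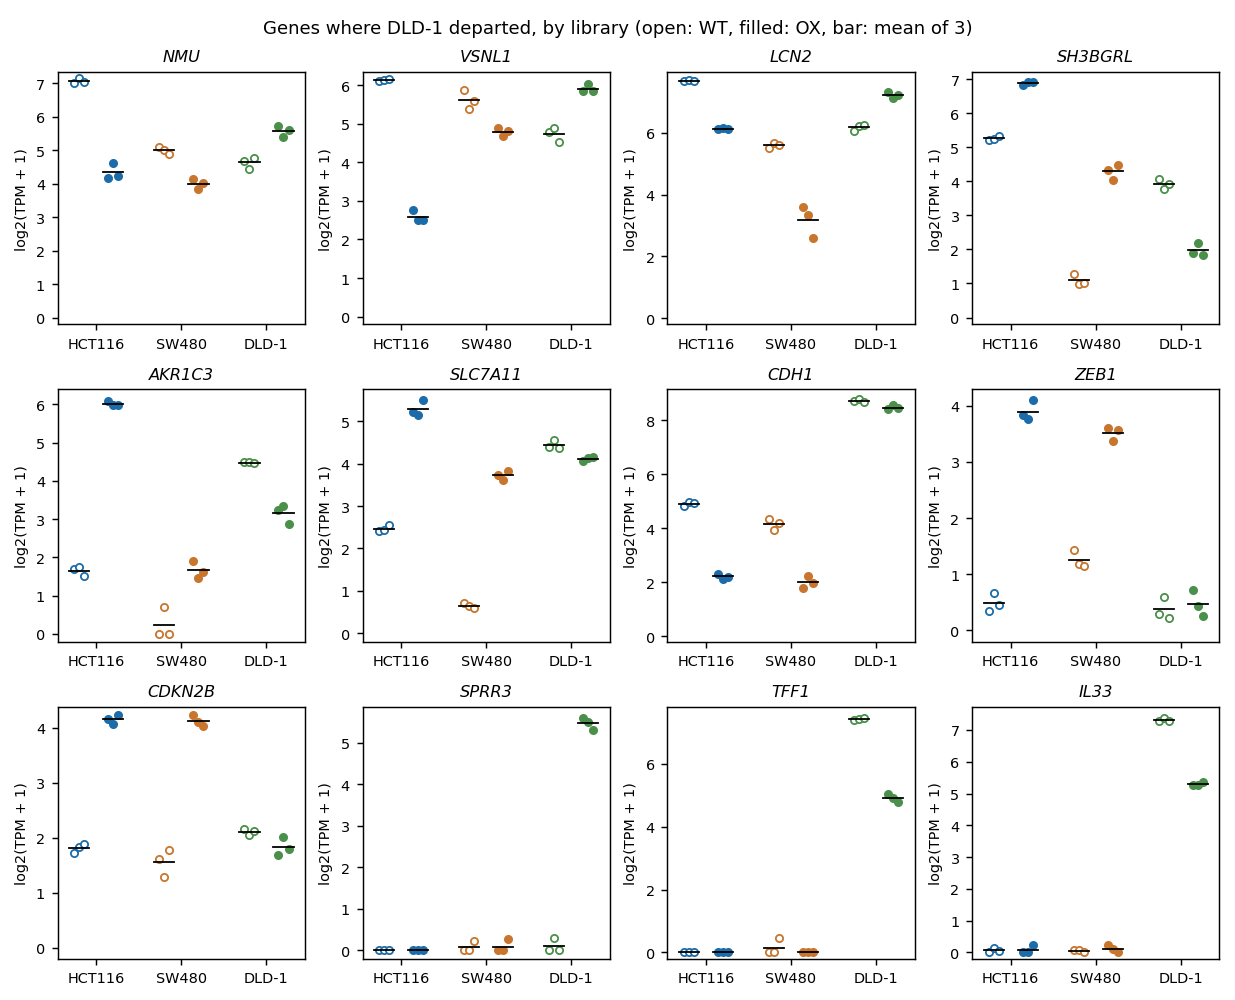
Each panel shows log2(TPM + 1) of 1 gene in the 18 libraries, with open points for WT, filled points for OX and a bar at the mean of 3. NMU, VSNL1, LCN2, SH3BGRL, AKR1C3 and SLC7A11 move in opposite directions in DLD-1. CDH1, ZEB1 and CDKN2B move mainly in HCT116 and SW480, and SPRR3, TFF1 and IL33 move in DLD-1 alone. For CDH1 and CDKN2B the filled points of DLD-1 also lie below the open ones.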

How the data were processed

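RNA-seq of OX and WT cells of HCT116, SW480 and DLD-1 was analysed, with 3 libraries per group, named by their titles. Per the study's methods and the submitters' notes, stranded mRNA libraries were trimmed, aligned to hg19 with TopHat2 2.1.1 (Bowtie2 2.2.8), and quantified as FPKM, with Cufflinks by the methods and Cuffdiff 2.2.1 by the notes. The authors deposited FPKM (fragments scaled by exon length and library size) per gene and library, without read counts, so depth is unknown, and whether strand was used in counting is not stated. Here FPKM was divided by its library sum to give TPM (transcript shares scaled to a fixed sum). Of 26255 genes, the 15401 with a TPM of at least 1 in at least 3 of 18 libraries were tested as log2(TPM + 1). TPM is relative, so a lower share of abundant genes raises all others.

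limma 3.58.1 (R 4.3.3, empirical Bayes with trend, two-sided, Benjamini-Hochberg over all genes tested) was fitted once with line as a block and once with 6 group means for the changes in each line and their differences. Genes named by size kept their direction with median-of-ratios scaling and, if shared, did not overlap between OX and WT in any line. The rule named up to 12 shared genes per direction, 6 per direction and kind of departure, and a few per list, plus genes fixed by name, and some genes that it named are not reported here. Genes and lists were chosen with earlier results of these data known, so no list was tested. Alternatives were other scalings, pseudocounts, filters, a pooled Wilcoxon test, leaving out each library, and a replicate block. The fits were tested on simulated data. The libraries treated with 5-FU were not analysed here.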

Additional observations from a re-analysis of the deposited data

Results flagged for a closer look

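The genes below stood out because the change from WT to OX in DLD-1 differed from that in both HCT116 and SW480 by limma's test of the difference (adjusted p under 0.05 for each). The values are the change of log2(TPM + 1) in DLD-1 less the mean change of the other two lines.

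Where DLD-1 rose and the others fell, the values were 3.37 for VSNL1, 3.03 for LCN2, 2.84 for LAD1, 2.8 for NMU and 2.76 for S100A2. Where DLD-1 fell and the others rose, they were -4.36 for SH3BGRL, -4.23 for AKR1C3, -4 for DPP4, -3.75 for SPRY4-IT1, -3.59 for EPHA4 and -3.49 for IQGAP2.

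The next genes had no call in DLD-1 in TPM. Those lower in the others had 3.88 for AP1M2, 3.01 for ST14, 2.59 for MISP, 2.42 for TMEM125, 2.16 for CDH1 and 2.11 for IPO11-LRRC70. Those higher in the others had -3.49 for GPR75-ASB3, -2.76 for ANTXR2, -2.76 for PLA2G4C, -2.74 for ZEB1, -2.74 for CDKN2B and -2.69 for ZBED6.

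Among genes called in DLD-1 alone, the higher ones had 5.36 for SPRR3, 5.15 for C6orf15, 4.03 for FAM25A, 3.7 for IVL, 3.53 for SPRR1A and 3.21 for CCL26. The lower ones had -3.39 for UGT1A1, -2.65 for LGALS4, -2.46 for TFF2, -2.44 for TFF1, -2.2 for ARSE and -2.05 for IL33. The line and the series of library names cannot be told apart in any of these.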

How the results depend on the processing

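The counts below moved with the setting, and the cause was not tested unless given. In the order FPKM as deposited, median-of-ratios and quantile scaling, shared higher genes numbered 61, 85 and 79 (345 in TPM) and shared lower genes 81, 85 and 38 (6 in TPM). Genes changed in HCT116 and SW480 without a call in DLD-1 numbered 605, 805 and 493 (1304 in TPM). Genes beyond a difference of 1 were 1290, 1694 and 1379 higher (3996 in TPM) and 1508, 1635 and 1361 lower (673) in HCT116, and 594, 857 and 673 higher (1930) and 508, 557 and 594 lower (170) in SW480. In DLD-1, FPKM as deposited gave 193 higher (363 in TPM).

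A pseudocount of 0.1 gave 3195 higher and 302 lower genes in SW480 and 636 higher and 266 lower in DLD-1. A mean TPM of at least 5 left 62 lower genes in DLD-1 (124 before) and 29 genes called in DLD-1 alone (82 before), with fewer genes tested. The Wilcoxon test of 9 against 9 libraries, which ignores the line, left 193 shared higher genes.

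Mean changes turned sign for ERCC1 (-0.0358 with FPKM, -0.0302 with median-of-ratios), MT2A (-0.181 and -0.176), XPA (-0.142, -0.141 and -0.182 with quantile scaling) and ATP7B (-0.0178 with quantile scaling).

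Leaving out 1 library gave 290 to 390 shared higher and 5 to 10 shared lower genes, the 10 without SW480 WT replicate 1. It gave 419 to 527 opposite genes, 1058 to 1451 without a call in DLD-1 and 80 to 90 called in DLD-1 alone. In each line the genes beyond 1 ranged from 3737 to 4284 higher and 653 to 691 lower in HCT116, 1557 to 2322 and 166 to 180 in SW480, and 358 to 395 and 124 to 128 in DLD-1.

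A replicate block gave 357 shared higher and 6 shared lower genes. No pairing of samples by number was evident, as deviations of same-numbered libraries correlated at -0.16 to 0.19, with 3 pairs over 0.1. Of 9 OX libraries, 4 correlated best with their own number. With 3 libraries per group, such a check cannot exclude a pairing. Over named genes and all alternatives, 3382 values kept their direction and call, 55 lost the call, 16 gained it and 8 turned sign.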
